A study of Mus musculus with 40 samples.

Results

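The genes followed here are those of the lipid droplets of skeletal muscle. They are 4 perilipins, *Plin2*, *Plin3*, *Plin4* and *Plin5*, and 4 genes of lipolysis, *Pnpla2*, *Abhd5*, *Lipe* and *Mgll*. They were chosen by their symbols, and all 8 are on the array, with 1 probe set for each gene, among 16475 probe sets in all. All 8 lay over the signal filter of a mean signal intensity of 20, as did 6479 probe sets. Gene expression was measured on 40 Affymetrix arrays, with both the gastrocnemius and the quadriceps of each of 20 male mice on an array of its own. The mice were of a strain spelled C56BL/6J in the sample labels and C57BL/6J in the study's methods. Of these mice, 10 received a high fat diet (HFD, 45 kcal% fat from palm oil) and 10 a low fat diet (LFD, 10 kcal% fat, also palm oil) during 8 weeks. All 20 had received a run-in LFD for 3 weeks from the age of 9 weeks, were 20 weeks old at the end and were fasted for 6 hours before dissection, so that no group shows the fed state. The groups are thus gastrocnemius of HFD mice, gastrocnemius of LFD mice, quadriceps of HFD mice and quadriceps of LFD mice, with n = 10 each.

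Muscle fibers store fatty acids as triglyceride in small lipid droplets, most of all in oxidative fibers. Perilipins coat the droplets and control which enzymes reach the triglyceride. Lipolysis then releases the fatty acids step by step: adipose triglyceride lipase (*Pnpla2*) together with its activator CGI-58 (*Abhd5*) starts on the triglyceride, hormone-sensitive lipase (*Lipe*) acts on the diglyceride and monoglyceride lipase (*Mgll*) on the monoglyceride. Several of these genes, *Plin2* and *Plin5* among them, are known targets of the peroxisome proliferator activated receptors (PPARs), which are activated by fatty acids. Adipocytes express much of this machinery at high levels, and some adipocytes lie between the fibers of a dissected muscle. In RNA from whole muscle, fewer cells of a type and less RNA per cell cannot be told apart.

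Myofiber genes were at high signal on every array, with a summed signal of 13 of 13 marker genes between 197931.7 and 222738.7. Of the slow fiber genes, 8 of 8 tested were higher in the gastrocnemius (fold change over 1.3 and FDR under 0.05 with limma, mean of both diets). Adipocyte signal was present in every group. *Adipoq*, the hormone adiponectin, lay between 312.9 and 2150.6 (median 653.25) in the gastrocnemius of HFD mice and between 289.3 and 873.1 (median 583.8) in that of LFD mice. In the quadriceps it lay between 584.3 and 2701.3 (median 1271.6) in HFD mice and between 670.1 and 1402.4 (median 851.15) in LFD mice. *Plin1*, the perilipin of adipocytes, has no probe set in the table used here. The summed signal of 8 neutrophil genes, 6 of them over the signal filter, stayed between 38.3 and 48.5 in all gastrocnemius arrays. In the quadriceps it reached 13446.6 in HFD mice (median 1274.2) and 2612.8 in LFD mice (median 44.4).

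Promoters of 4 genes are shown, because the comparisons of the diets turn on *Plin5* and *Mgll*, *Plin4* is the neighbour of *Plin5* on the same strand, and *Plin2* is a known PPAR target as well. Each runs from 250 bases before to 50 bases after the start of the gene (RefSeq, mouse build GRCm38.p6, written 5′ to 3′ on the strand of the gene). Capitals mark AGGTCA, the core motif of PPARs and other nuclear receptors, or its reverse complement TGACCT.

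Plin5 chr17:56117499-56117798, minus strand: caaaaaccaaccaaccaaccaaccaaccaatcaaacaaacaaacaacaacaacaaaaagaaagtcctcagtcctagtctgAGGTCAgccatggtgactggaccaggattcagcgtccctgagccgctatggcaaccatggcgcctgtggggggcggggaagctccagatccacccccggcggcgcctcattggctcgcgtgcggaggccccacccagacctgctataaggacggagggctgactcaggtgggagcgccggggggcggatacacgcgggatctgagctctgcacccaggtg

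Plin4 chr17:56109733-56110032, minus strand: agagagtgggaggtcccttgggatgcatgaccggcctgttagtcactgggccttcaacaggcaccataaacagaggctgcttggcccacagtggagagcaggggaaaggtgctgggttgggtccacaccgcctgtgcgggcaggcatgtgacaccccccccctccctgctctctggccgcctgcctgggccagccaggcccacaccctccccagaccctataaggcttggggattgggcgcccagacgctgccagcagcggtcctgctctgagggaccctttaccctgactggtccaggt

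Plin2 chr4:86670010-86670309, minus strand: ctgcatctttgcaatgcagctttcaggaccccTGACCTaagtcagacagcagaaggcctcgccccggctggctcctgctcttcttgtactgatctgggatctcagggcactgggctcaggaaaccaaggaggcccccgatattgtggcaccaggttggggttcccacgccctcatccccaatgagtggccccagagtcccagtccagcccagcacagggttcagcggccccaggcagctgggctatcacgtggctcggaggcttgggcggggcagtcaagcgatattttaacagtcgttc

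Mgll chr6:88724162-88724461, plus strand: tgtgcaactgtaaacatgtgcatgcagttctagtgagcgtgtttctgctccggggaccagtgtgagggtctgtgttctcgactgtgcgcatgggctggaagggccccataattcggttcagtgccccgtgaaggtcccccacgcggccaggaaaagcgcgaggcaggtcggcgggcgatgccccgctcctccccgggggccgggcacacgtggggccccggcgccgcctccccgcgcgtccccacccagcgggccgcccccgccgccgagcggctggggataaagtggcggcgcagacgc

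The motif occurred once in this *Plin5* window and once in the window of its second start site, once in *Plin2* and once in *Abhd5*, and not in the windows of the other 5 genes. On either strand it is found in 16.3% of all 32851 promoter windows. The repeat bound by PPARs, AGGNCA followed after a base N by a further AGGNCA, was in none of the 11 windows of the 8 genes and is in 0.381% of all windows. The E-box CACGTG, which reads the same on both strands and overlaps no AGGTCA, was in *Plin2*, the shown window of *Mgll* and a window of *Lipe*, against 7.15% of all windows. Matching letters were counted only, and binding was not measured.

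**Figure D1:**
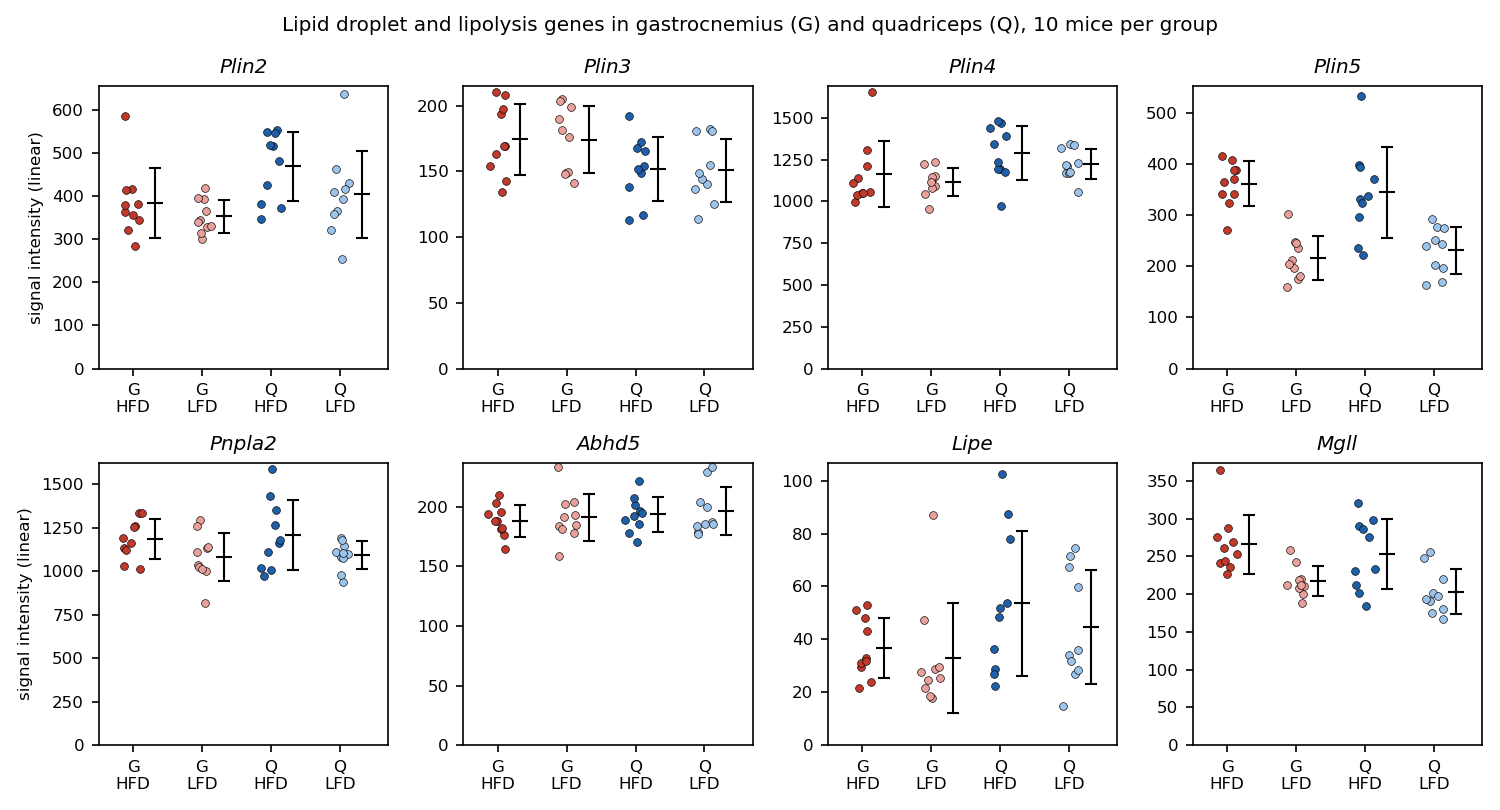
Signal intensity (linear axis from 0) of the 8 genes in the gastrocnemius (G) and the quadriceps (Q) of HFD and LFD mice. Each point is 1 array, and the bar beside the points is the mean ± SD of 10 mice. *Plin5* is higher in the HFD groups of both muscles, and 1 array of the gastrocnemius of HFD mice lies far above the others for *Plin2* (586.9), *Plin4* (1656.1) and *Mgll* (364.7).

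To find out which of these genes responded to the diet, HFD was compared with LFD in each muscle. Genes with a fold change over 1.3 and a false discovery rate (FDR, Benjamini-Hochberg over all 6479 tested probe sets) under 0.05 with limma are referred to as called. *Plin5* was increased by the HFD in both muscles and was the only one of the 8 genes that was called. This is 1 of 8 genes in each muscle, against 0.216% of all tested probe sets called in the gastrocnemius (14) and 0.0617% in the quadriceps (4). Of these, *Plin5*, *Ech1*, a gene of fatty acid oxidation, and *BC048679* were the 3 genes called in both muscles, and the last was named after its values were seen.

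*Plin5* encodes the perilipin of oxidative tissues, which holds adipose triglyceride lipase in check and ties droplets to mitochondria. In the gastrocnemius its signal intensity lay between 271.4 and 416.0 (median 367.6) in HFD mice and between 159.4 and 302.6 (median 207.9) in LFD mice. Signals of 9 of 10 HFD mice were above that of every LFD mouse, and the groups overlapped only through HFD mouse 151 (271.4) and LFD mouse 148 (302.6). The means were 361.6 ± 43.6 in HFD mice and 215.9 ± 42.7 in LFD mice (SD, n = 10 each). On the log2 scale the fold change was 0.76 (95% interval 0.50 to 1.01, limma's adjusted p = 0.000419), a 1.69-fold increase.

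In the quadriceps *Plin5* lay between 222.6 and 534.0 (median 333.85) in HFD mice and between 164.0 and 292.5 (median 241.4) in LFD mice. Here 8 of 10 HFD mice were above every LFD mouse, and HFD mice 143 (222.6) and 151 (236.6) were within the LFD range. Of all tested probe sets, 0.123% had at least 8 of 10 HFD arrays above every LFD array in the quadriceps and 0.355% in the gastrocnemius. The means were 344.4 ± 89.1 in HFD mice and 231.2 ± 45.5 in LFD mice (SD, n = 10 each), with a log2 fold change of 0.56 (95% interval 0.30 to 0.81, limma's adjusted p = 0.0387). This call was lost when any 1 of 14 mice was left out (141, 142, 145, 146, 147, 149, 150, 152, 154, 156, 157, 158, 159 or 160, adjusted p of 0.0517 to 0.138), and in a fit of the quadriceps arrays alone (adjusted p = 0.264). The log2 fold change stayed between 0.48 and 0.62 without any 1 of the 20 mice. In the gastrocnemius the call remained without any 1 mouse (adjusted p of 8.16e-05 to 0.00172).

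The increases of *Plin5* in the 2 muscles were compared directly. The interaction was 0.20 on the log2 scale (gastrocnemius minus quadriceps, 95% interval -0.16 to 0.56, limma's adjusted p = 0.9998), so that a difference between the muscles was not detected, while one of up to 0.56 lies within the interval. Of all tested probe sets none (0.00%) had an interaction at an FDR under 0.05, and 118 (1.82%) had an unadjusted p under 0.05.

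Because the mouse is the unit that was fed, both muscles of a mouse were also averaged on the log2 scale, which gives 10 values against 10. *Plin5* then had a geometric mean signal between 253.4 and 467.2 (median 360.8) in HFD mice and between 161.7 and 297.5 (median 224.6) in LFD mice. The means of 8 of 10 HFD mice lay above those of all LFD mice. The log2 fold change was 0.66 (95% interval 0.44 to 0.88, limma's adjusted p = 0.00219), against a call for 0.108% of all tested probe sets (7). The call remained without any 1 mouse (adjusted p of 0.000563 to 0.00647).

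**Figure D2:**
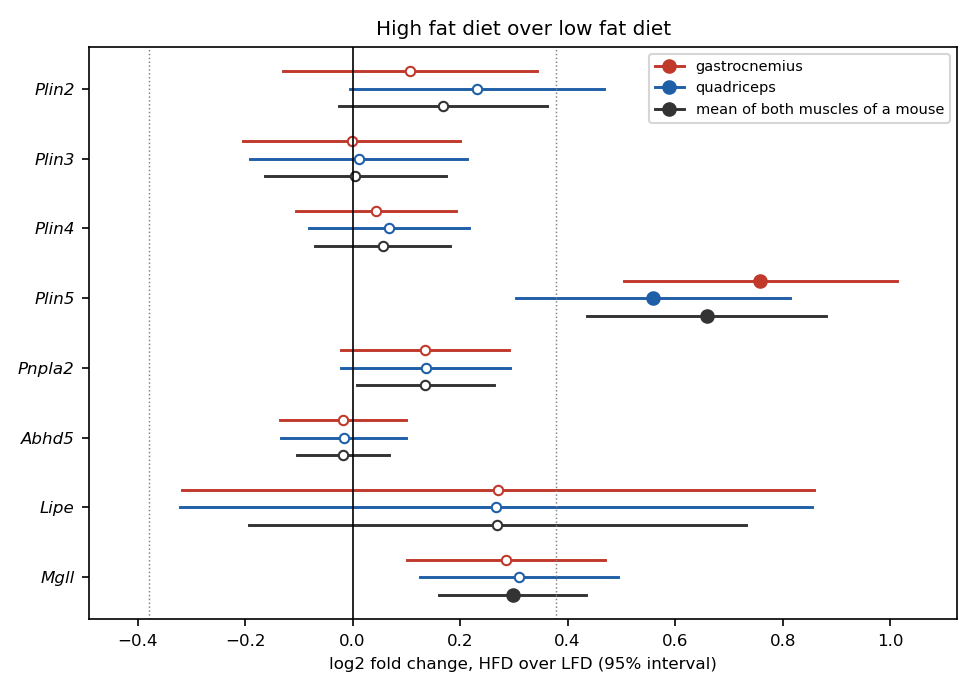
Log2 fold changes of HFD over LFD (x axis) with 95% intervals for the 8 genes (rows), for gastrocnemius, for quadriceps and for the mean of both muscles of a mouse. Filled points have an FDR under 0.05, open points do not, and dotted lines mark a fold change of 1.3. *Plin5* is the only gene past both thresholds, and the mean of both muscles of *Mgll* (0.30) is filled but inside the dotted line.

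*Mgll*, the gene of the last enzyme of lipolysis, had the strongest difference after *Plin5* by its p. It had a signal intensity between 226.9 and 364.7 (median 257.5) in the gastrocnemius of HFD mice and between 188.6 and 259.1 (median 211.9) in that of LFD mice. In the quadriceps it lay between 184.6 and 321.5 (median 254.3) in HFD mice and between 167.6 and 255.6 (median 195.85) in LFD mice. In each muscle 5 of 10 HFD mice were above every LFD mouse, and the groups overlapped. Its log2 fold change was 0.29 in the gastrocnemius (95% interval 0.10 to 0.47, limma's adjusted p = 0.184) and 0.31 in the quadriceps (95% interval 0.13 to 0.49, adjusted p = 0.247), and it was called in neither.

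With both muscles of a mouse averaged, *Mgll* lay between 218.3 and 290.0 (median 263.7) in HFD mice and between 177.8 and 239.0 (median 207.1) in LFD mice, and 6 of 10 HFD mice were above all LFD mice. The log2 fold change was 0.30 (95% interval 0.16 to 0.43), a 1.23-fold difference. This passed the FDR (limma's adjusted p = 0.0376), as 0.525% of all tested probe sets did (34), but not the fold change of 1.3. The adjusted p was 0.05 or more without any 1 of 13 mice (141, 142, 145, 147, 149, 150, 151, 152, 153, 154, 156, 158 or 160, highest adjusted p = 0.082).

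The other lipolysis genes were not called. *Pnpla2*, the enzyme that starts lipolysis, averaged 1184 ± 114 in the gastrocnemius of HFD mice and 1082 ± 139 in that of LFD mice. In the quadriceps it averaged 1209 ± 200.3 in HFD mice and 1091 ± 80.5 in LFD mice (SD, n = 10 each). It had a log2 fold change of 0.13 in gastrocnemius, 0.14 in quadriceps and 0.14 for the mean of both muscles (95% interval 0.01 to 0.26, limma's adjusted p = 0.487). *Abhd5*, the gene of its activator, varied little between mice (coefficient of variation of 7.02% to 10.3% within the groups), with group means of 188.4 ± 13.2 and 191.2 ± 19.7 in the gastrocnemius of HFD and LFD mice and 193.9 ± 14.7 and 196.6 ± 20.3 in the quadriceps of HFD and LFD mice. Its log2 fold change for the mean of both muscles was -0.02, and the 95% interval of -0.10 to 0.07 leaves out any change of 1.3-fold.

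*Lipe* was measured at the lowest signals and varied most between mice. It lay between 21.6 and 53.1 (median 32.4) in the gastrocnemius of HFD mice and between 17.8 and 87.1 (median 26.4) in that of LFD mice. In the quadriceps it lay between 22.4 and 102.4 (median 50.2) in HFD mice and between 14.7 and 74.5 (median 34.9) in LFD mice. The highest of these signals are 2.46 to 5.07 times the lowest of the same group, and the groups overlapped. The log2 fold change of the mean of both muscles was 0.27, with a 95% interval from -0.19 to 0.73 (limma's adjusted p = 0.812) that covers both no change and a change well over 1.3-fold.

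Of the perilipins other than *Plin5*, none was called. *Plin2*, which coats droplets in most cell types, lay between 284.6 and 586.9 (median 372.15) in the gastrocnemius of HFD mice and between 300.6 and 420.3 (median 342.85) in that of LFD mice. In the quadriceps it lay between 347.2 and 553.6 (median 499.85) in HFD mice and between 253.5 and 637.1 (median 401.85) in LFD mice. The highest *Plin2* signal of the quadriceps was that of an LFD mouse, mouse 159. Its log2 fold change was 0.11 in the gastrocnemius (95% interval -0.13 to 0.34, limma's adjusted p = 0.901) and 0.23 in the quadriceps (95% interval -0.0046 to 0.47, adjusted p = 0.902).

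*Plin3*, which moves between the cytosol and droplets, averaged 174.2 ± 26.8 and 174.1 ± 25.4 in the gastrocnemius of HFD and LFD mice and 152.0 ± 24.4 and 150.7 ± 24.0 in the quadriceps of HFD and LFD mice. The log2 fold change of its mean over both muscles was 0.01 (95% interval -0.16 to 0.17), less than a change of 1.3-fold. *Plin4*, a perilipin of adipocytes and muscle, averaged 1163 ± 197 and 1118 ± 84.0 in the gastrocnemius of HFD and LFD mice and 1290 ± 164 and 1224 ± 89.5 in the quadriceps of HFD and LFD mice. Its mean over both muscles had a log2 fold change of 0.06 (95% interval -0.07 to 0.18). The increase of *Plin5* was thus not accompanied by a call of another perilipin. Over all 8 genes the median log2 fold change of the mean of both muscles was 0.15, with 7 positive and 1 negative, beside a median of -0.01 over all tested probe sets.

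Other genes of droplets and their triglyceride were taken from lists. Of 8 tested genes of droplet coat and growth and of 15 of lipolysis control, such as *G0s2*, an inhibitor of adipose triglyceride lipase, none was called for the diet in either muscle or in their mean, with median log2 fold changes of the mean of -0.02 and -0.01. At an unadjusted p under 0.05 there was 1 gene of each list for the mean, against 9.37% of all tested probe sets. Of 9 tested genes of triglyceride synthesis none was called either, but 1 passed the FDR for the mean of both muscles (median log2 fold change 0.10). This was *Acsl1*, which activates fatty acids (log2 fold change 0.25, limma's adjusted p = 0.0157), and it was named after its value was seen. Of 20 tested PPAR targets of muscle, 18 were positive for the mean of both muscles and 11 passed the FDR, with a median of 0.22. Of all tested probe sets 0.525% passed, with a median of -0.01. This list, like the others, was chosen with earlier results of these data known. Only *Ech1* was called among them (0.43, limma's adjusted p = 0.000151), as were *Ech1* and the fatty acid transporter *Cd36* (0.38, adjusted p = 0.000419) in the gastrocnemius. *Plin5* was at 0.66 in the same comparison of means.

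The increase of *Plin5* was set beside the cell type signals that varied with it. Of 8 tested slow fiber genes, limma called 0 for the diet in either muscle, and 1 in the gastrocnemius and 0 in the quadriceps had an unadjusted p under 0.05, as had 8.97% and 5.68% of all tested probe sets in these muscles. Their summed signal lay between 7594.4 and 12832.7 in the gastrocnemius of HFD mice and between 6132.0 and 13786.1 in that of LFD mice. In the quadriceps the sum spread far wider, between 372.8 and 5889.0 (median 4148.0) in HFD mice and between 454.7 and 8121.7 (median 4181.8) in LFD mice. HFD mice 143 and 151, whose quadriceps had the lowest *Plin5* of their group, also had the lowest slow fiber sums of all arrays (373.5 and 372.8). Mouse 145, with the highest *Plin5* (534.0), had the highest slow fiber sum of the HFD quadriceps (5889.0).

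Over the 20 mice, deviations of *Plin5* from its group means correlated with those of the slow fiber sum in the quadriceps (Pearson's r = 0.77, Spearman's rho = 0.70), within HFD mice (r = 0.86) and within LFD mice (r = 0.66). Without the 2 arrays farthest from the median, those of mice 143 and 151, r was 0.65. In the gastrocnemius, where every array had a high slow fiber sum, r was 0.19 (rho = 0.10), with -0.29 within HFD mice and 0.42 within LFD mice. These are descriptions over arrays that share their normalization. *Plin3* varied likewise with the slow fiber sum in the quadriceps (r = 0.76, rho = 0.55) and less in the gastrocnemius (r = 0.48, rho = 0.45). In the gastrocnemius *Abhd5* (r = -0.63, rho = -0.57) and *Lipe* (r = -0.54, rho = -0.39) were lower where the slow fiber sum was higher, and without mice 141 and 159 r was -0.48 for *Abhd5* and -0.34 for *Lipe*.

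**Figure D3:**
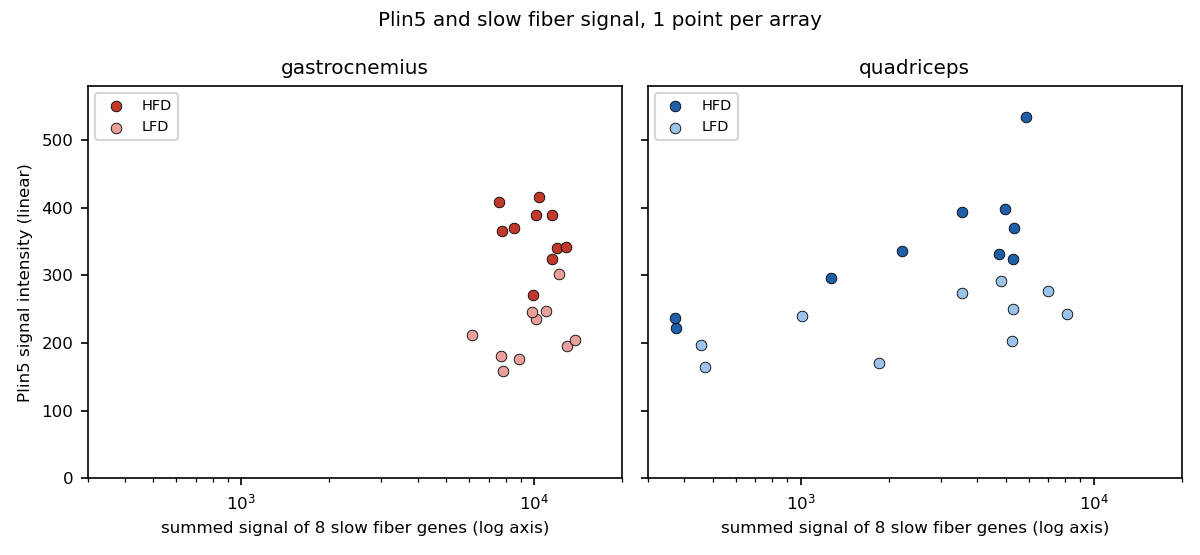
*Plin5* signal intensity (y axis, linear) against the summed signal of 8 slow fiber genes (x axis, log scale), with 1 point per array, for gastrocnemius and quadriceps and for both diets. In the quadriceps the 2 HFD arrays at the left edge (slow fiber sums of 373.5 and 372.8) have *Plin5* at 222.6 and 236.6. In the gastrocnemius 9 of 10 HFD arrays lie above every LFD array, and the slow fiber sums of the diets overlap. The part of slow fiber signal in the *Plin5* differences was not tested.

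Neutrophil signal moved with *Plin5* in the quadriceps to a like degree. Deviations of *Plin5* from its group means correlated with those of the neutrophil sum at r = 0.78 (rho = 0.73, 20 mice), with 0.82 within HFD mice, 0.71 within LFD mice and 0.71 without mice 145 and 153. For *Plin3* r was 0.66 (rho = 0.57). The neutrophil and slow fiber sums themselves correlated in that muscle (r = 0.74, rho = 0.73), so that these arrays do not separate the relations of *Plin5* with each. In the gastrocnemius, where the neutrophil sum hardly varied, r of *Plin5* with it was -0.36 (rho = -0.44). Mouse 145 had the highest neutrophil sum of all arrays (13446.6). All 6 tested neutrophil genes had a positive difference for HFD in the quadriceps (median log2 fold change 1.17). Neutrophil genes reached at most 10.9 in the gastrocnemius, so that they passed the filter on the mean only through quadriceps arrays. Their shared direction was therefore not independent of the filter. None was called by limma, 1 had an unadjusted p under 0.05, and the part of neutrophil and slow fiber signal in the *Plin5* difference of that muscle was not tested. Without mouse 145 the log2 fold change of *Plin5* in the quadriceps was 0.48 (limma's adjusted p = 0.138). In the gastrocnemius the neutrophil sum was between 40.2 and 48.5 in HFD mice and between 38.3 and 47.0 in LFD mice.

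*Plin2* and *Mgll* varied with adipocyte signal. Deviations of *Plin2* from its group means correlated with those of *Adipoq* in the gastrocnemius (r = 0.77, rho = 0.68, 20 mice) and in the quadriceps (r = 0.60, rho = 0.62). Without the 2 farthest arrays of each muscle, r was 0.61 in both. For *Mgll* the values were r = 0.60 (rho = 0.39) and r = 0.52 (rho = 0.43), and 0.37 in each muscle without the 2 farthest arrays. *Plin4* correlated with *Adipoq* in the gastrocnemius (r = 0.69, rho = 0.50), but r was 0.37 without mice 145 and 149, and in the quadriceps it was 0.49 (rho = 0.33), or 0.22 without mice 144 and 151. Within HFD mice the quadriceps value was 0.70 and within LFD mice -0.22. The r of *Plin5* was 0.15 in gastrocnemius and -0.17 in quadriceps. That of *Lipe*, the gene of a lipase best known from adipocytes, was 0.35 in gastrocnemius and 0.30 in quadriceps. Against the summed signal of 11 adipocyte genes, r was 0.15 for *Lipe* in each muscle. It was 0.69 and 0.31 for *Plin4* (gastrocnemius and quadriceps), 0.76 and 0.71 for *Plin2* and 0.72 and 0.51 for *Mgll*. Against that of 8 macrophage genes, r was 0.57 and 0.60 for *Plin4*, 0.36 and 0.41 for *Plin2* and 0.35 and 0.51 for *Mgll*. It was 0.49 and 0.66 for *Pnpla2* and 0.36 and -0.14 for *Lipe*.

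Of 8 tested adipocyte genes, none was called by limma for the diet over the mean of both muscles, but 6 had an unadjusted p under 0.05, against 9.37% of all tested probe sets. The median log2 fold change was 0.29, with 6 positive and 2 negative. Of the 8, *Cidec* had a median signal under the value of the signal filter in the gastrocnemius of LFD mice (18.5, lowest 7.8). Its median was 24.05 in the gastrocnemius of HFD mice, and 82.4 and 43.75 in the quadriceps of HFD and LFD mice. The summed signal of all 11 adipocyte genes on the array came mostly from *Fabp4*, which endothelium expresses too. It lay between 5831.3 and 11642.9 (median 6889.2) in the gastrocnemius of HFD mice and between 5847.2 and 7709.7 (median 6710.9) in that of LFD mice. In the quadriceps it lay between 7242.0 and 11968.4 (median 8821.6) in HFD mice and between 6781.4 and 11952.1 (median 7952.4) in LFD mice. Most adipocyte genes thus had positive differences for HFD, as *Mgll* and *Plin2* did, and the part of adipocyte signal in those differences was not tested.

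**Figure D4:**
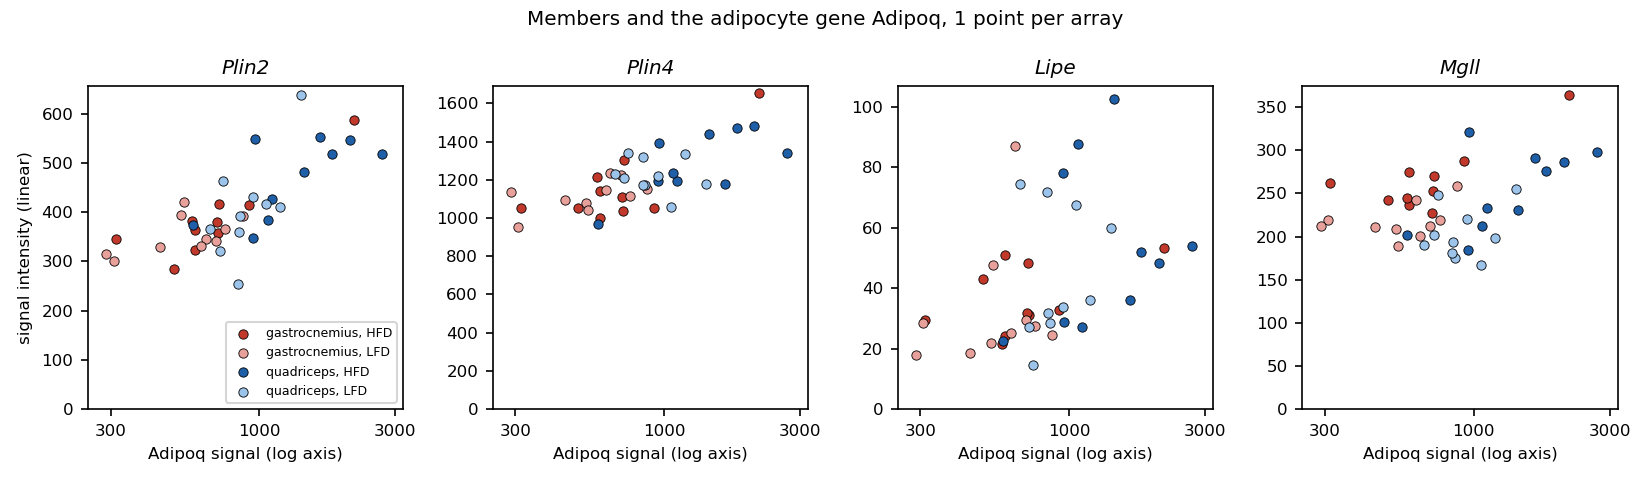
Signal intensity of *Plin2*, *Plin4*, *Lipe* and *Mgll* (y axes, linear from 0) against that of the adipocyte gene *Adipoq* (x axis, log scale), with 1 point for each of 40 arrays, coloured by muscle and diet. *Plin2* is higher where *Adipoq* is higher, and the gastrocnemius of HFD mouse 149 has *Adipoq* at 2150.6 and the highest *Plin2* (586.9) and *Mgll* (364.7) of its group.

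The muscles were compared next. None of the 8 genes was called between gastrocnemius and quadriceps in HFD mice (against 3.46% of all tested probe sets), in LFD mice (against 2.52%) or for the mean of both diets (against 3.75%). At an unadjusted p under 0.05 limma gave 1 of the 8 in HFD mice (against 18.7% of all tested probe sets), 2 in LFD mice (against 19.0%) and 4 for the mean (against 28.0%). At the FDR alone, which 18.0% of all tested probe sets passed for the mean of both diets, there were differences among the perilipins in both directions. *Plin3* was higher in the gastrocnemius (1 of 8 genes, against 8.13% of all tested), and *Plin2* and *Plin4* were lower (2 of 8, against 9.83%).

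*Plin3* averaged 174.2 and 152.0 in gastrocnemius and quadriceps of HFD mice, and 174.1 and 150.7 in gastrocnemius and quadriceps of LFD mice. Of 20 mice, 18 had more of it in the gastrocnemius, with a log2 fold change of 0.20 (95% interval 0.06 to 0.35, limma's adjusted p = 0.0374). *Plin2* averaged 385.4 and 469.8 in gastrocnemius and quadriceps of HFD mice, and 353.7 and 405.2 in those of LFD mice. It was lower in the gastrocnemius of 16 of 20 mice, with a log2 fold change of -0.23 (95% interval -0.40 to -0.06, adjusted p = 0.0487). *Plin4* was lower in 17 of 20, at -0.14 (95% interval -0.25 to -0.04, adjusted p = 0.0499). The 3 perilipins lay close to the threshold, and each lost it in some of the fits without 1 mouse (9 of 20 for *Plin3*, 16 of 20 for *Plin2* and 16 of 20 for *Plin4*). With the mouse as a block, which compares the muscles within each mouse, the adjusted p was 0.0103 for *Plin3*, 0.0162 for *Plin2* and 0.018 for *Plin4*.

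*Plin5* did not differ between the muscles at the FDR, with a higher signal in the gastrocnemius for 11 of 20 mice and a log2 fold change of 0.00 (95% interval -0.18 to 0.18). The intervals were also narrow for *Pnpla2* (-0.02, 95% interval -0.13 to 0.09) and *Abhd5* (-0.04, 95% interval -0.12 to 0.04). *Mgll* was at 0.09 (95% interval -0.04 to 0.22). *Lipe* was lower in the gastrocnemius of 14 of 20 mice, at -0.44, but with a 95% interval from -0.86 to -0.03 and an adjusted p of 0.144 it did not pass the test.

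**Figure D5:**
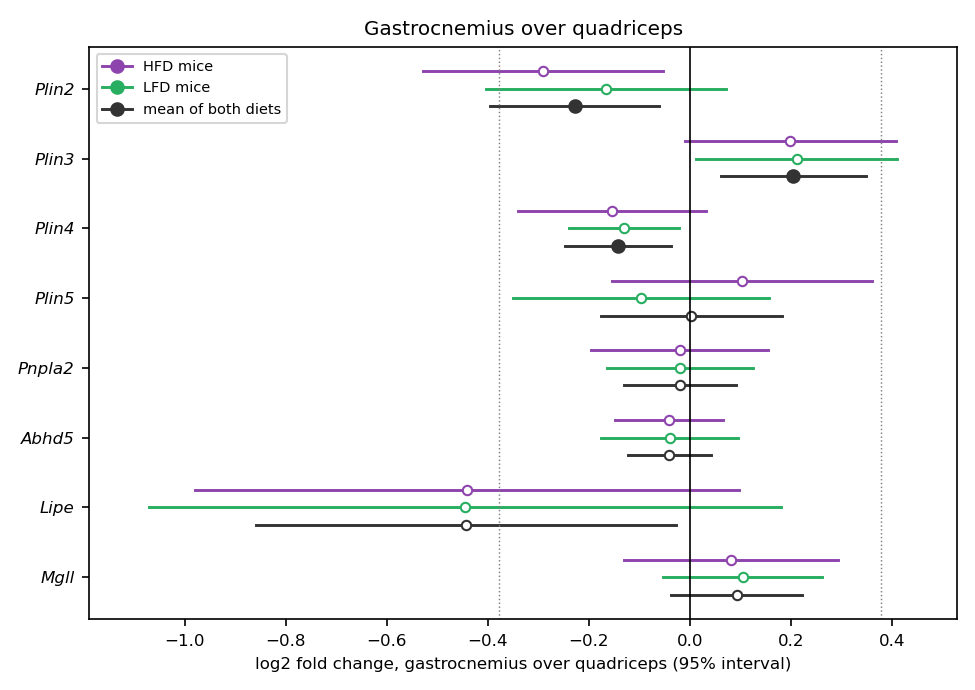
Log2 fold changes of gastrocnemius over quadriceps (x axis) with 95% intervals for the 8 genes (rows), in HFD mice, in LFD mice and for the mean of both diets. Filled points have an FDR under 0.05, open points do not, and dotted lines mark a fold change of 1.3. The means of *Plin3* (0.20), *Plin2* (-0.23) and *Plin4* (-0.14) are filled, and none of the 8 genes has a filled point beyond the dotted lines.

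Beside these small differences, single genes of the other lists were called over both diets, as were 3.75% of all tested probe sets. The median log2 fold changes were -0.065 for droplet coat and growth, 0.022 for lipolysis control, -0.053 for triglyceride synthesis and -0.001 for PPAR targets. *Cidec*, which fuses droplets in adipocytes, was 1 of 8 tested coat and growth genes called, with a log2 fold change of -1.41 (limma's adjusted p = 0.000472, mean of both diets). *Ces1d*, a carboxylesterase with triglyceride hydrolase activity, was 1 of 15 lipolysis control genes called, at -0.86 (adjusted p = 1.27e-07). *Acsl3* was 1 of 9 tested genes of triglyceride synthesis called, at -0.46 (adjusted p = 0.0254). Of 20 tested PPAR targets *Ucp2* (-0.39, adjusted p = 0.0212) and *Angptl4* (-0.45, adjusted p = 0.0309) were called, each lower in the gastrocnemius. Adipocyte genes were lower in the gastrocnemius as well, with 6 of 8 tested called (median log2 fold change -0.80) and *Adipoq* at -0.84 (adjusted p = 0.000494). The part of adipocyte, slow fiber and neutrophil signal in the muscle differences of *Plin2*, *Plin3* and *Plin4* was not tested.

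The muscles of a mouse also told whether a mouse with a high signal in one muscle had a high signal in the other. For *Plin5* the deviations from the group means of the 2 muscles correlated with r = 0.57 over 20 mice (rho = 0.55), against a median of 0.17 over all tested probe sets. LFD mouse 148 had the highest *Plin5* of its group in both muscles (302.6 and 292.5 in gastrocnemius and quadriceps) and LFD mouse 156 the lowest (159.4 and 164.0). For *Plin3*, *Plin4* and *Plin2* r was 0.39, 0.37 and 0.36, for *Pnpla2* 0.28 and for *Lipe* 0.26. These pooled values hide unlike ones within the diets, whose difference was not tested, with 0.08 within HFD mice and 0.68 within LFD mice for *Pnpla2*, and -0.29 within HFD mice and 0.63 within LFD mice for *Lipe*. For *Mgll* (0.06) and *Abhd5* (-0.08) it was near 0.

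Among themselves, the 8 genes varied together only in part. Over the 40 arrays, after subtraction of the group means, the highest correlation was that of *Plin2* with *Mgll* (r = 0.70) and the lowest that of *Plin5* with *Lipe* (r = -0.46). *Plin5* correlated with *Plin3* at 0.57, with *Mgll* at 0.47, with *Pnpla2*, whose enzyme its protein holds in check, at 0.38 and with its neighbour *Plin4* at 0.23.

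The tested genes most alike in pattern differed between the 8 genes. For *Plin5* they were *Lmod2*, an actin nucleator of muscle (r = 0.84), the noncoding RNA *H19* (r = 0.84) and *Tmem65* (r = 0.83). For *Pnpla2* they were *Txn2* (r = 0.83), *Cpt2*, which takes part in the import of fatty acids into mitochondria (r = 0.79), and *Prdx3* (r = 0.78), all of which encode mitochondrial proteins. For *Plin2*, *Tmem45b* (r = 0.70) and *Mgll* were followed by *Fabp4*, the fatty acid binding protein of adipocytes and endothelium (r = 0.69). For *Mgll* it was *Pgd*, of the pentose phosphate pathway, that came first (r = 0.85). For *Abhd5* the first was *Dnm1l* (r = 0.79), for *Plin4* *Atox1* (r = 0.75), for *Plin3* *Midn* (r = 0.75) and for *Lipe* *Cnot11* (r = 0.77).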

How the data were processed

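The authors combined the probes of the Affymetrix arrays to 1 probe set for each Entrez gene, followed by quantile normalization and GC-RMA (version and build not given in the sources used here). Deposited were linear signal intensities, per the labels and the values. Of 16539 probe sets, 64 controls were left out. Symbols came from the current RefSeq annotation (16229) or only the platform annotation (28). Array medians were 8.8 to 9.4, no arrays were identical, and precision is limited by the number of arrays. The labels' extraction protocol names only the quadriceps, so the muscle was taken from titles and source names.

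After a filter on a mean over 20 (39.3% of probe sets), limma 3.58.1 (R 4.3.3) was run on log2 intensities. Muscles were compared within each diet on 20 arrays, other contrasts came from 1 fit of 4 groups, and the mean of both muscles was fitted over 20 mice. Fold changes are ratios of geometric means, and other means are arithmetic unless named geometric. Descriptions and figures were made in Python 3.11.15 with pandas 2.3.3, numpy 2.4.6, matplotlib 3.10.9 and scipy 1.17.1. The main fits were also run on simulated arrays with independent noise, which cannot test them for muscles paired by mouse. Named were all 8 genes, up to 4 called genes per list and comparison, and the 3 most alike genes of each (only the first for some). The genes, lists and tests were chosen with earlier results of these data known, and lists were counted, not tested. Marker sums run over all markers of a list that are on the array, also those under the signal filter.

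Mice are numbered in the labels, and both muscles of a number come from 1 animal. Their deviations from the group means correlated within a mouse with a median of -0.07 in HFD and 0.39 in LFD mice. Between different mice the median was -0.01 in HFD and -0.05 in LFD mice, so that the pairing was visible in LFD mice only. The main tests ran without a block (the study's methods give moderated linear models and name no pairing). Alternatives were other filters, normalizations and spread models, array weights, a pseudocount of 16, other thresholds, the mouse as a block, fits of 1 muscle and leaving out each mouse.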

Additional observations from a re-analysis of the deposited data

Results flagged for a closer look

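Of the 32 groups formed by 8 genes, 2 muscles and 2 diets, 4 held a single array far from the others by Dixon's criterion, which flags about 1 in 20 groups by chance. In 3 of them it was the gastrocnemius of HFD mouse 149. Its signal intensity was 586.9 for *Plin2* (next highest 416.0), 1656.1 for *Plin4* (next 1305.2) and 364.7 for *Mgll* (next 287.5). The same array had the highest *Adipoq* of its group (2150.6). In the 4th group, *Lipe* in the gastrocnemius of LFD mice, mouse 141 had 87.1 against 47.5 for the next, and the quadriceps of that mouse also had the highest *Lipe* of its group (74.5).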

How the results depend on the processing

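*Plin5* was the only 1 of the 8 genes called under an alternative that kept both thresholds. In the quadriceps 0 of 8 genes were called for the diet without a signal filter (adjusted p of *Plin5* 0.0713), with array weights (0.0699) and in the fit of that muscle alone (0.264), and between 0 and 1 without single mice. The standard error of *Plin5* was 0.126 in the main fit, 0.125 without the filter, 0.116 with array weights and 0.141 in the fit of the quadriceps alone. Its log2 fold change was 0.48 with array weights and 0.56 in the other fits named here. Without the filter the adjustment ran over 16475 probe sets in place of 6479. Why the call was lost in these settings was not tested. By the FDR alone the count was 2 for the diet over the mean of both muscles and 3 for the muscles over both diets. With the mouse as a block (pairing by animal) the count of called genes changed in no comparison, with 1 for the diet in each muscle (*Plin5* in the quadriceps adjusted p = 0.0273) and 0 between the muscles.

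Over all tested probe sets, counts of calls moved by more than 1.5 times in some settings. For the diet in the gastrocnemius 14 were called, against 46 with array weights, 44 by the FDR alone and 9 to 19 without single mice. In the quadriceps 4 were called, against 2 with array weights, 1 in the fit of that muscle, 12 by the FDR alone and 1 to 10 without single mice. For the mean of both muscles 7 were called, against 11 with array weights, 34 by the FDR alone and 7 to 13 without single mice. Between the muscles 224 were called in HFD mice, 163 in LFD mice and 243 over both diets, against 429, 338 and 1164 by the FDR alone and 375 over both diets without a signal filter.

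Directions turned only for log2 fold changes near 0 that were not called. With array weights they were 0.021 for *Pnpla2* between the muscles in LFD mice and 0.0079 over both diets, 0.026 for *Abhd5* by diet in the gastrocnemius and 0.027 in the mean of both muscles, and -0.040 for *Plin3* in that mean. *Plin3* by diet in the gastrocnemius was 0.0023 with repeated quantile normalization and 0.0080 with equal array medians. Leaving out single mice gave ranges across 0. By diet these were -0.033 to 0.038 for *Plin3*, -0.015 to 0.066 for *Plin4* and -0.047 to 0.014 for *Abhd5* in the gastrocnemius, -0.032 to 0.057 for *Plin3* and -0.039 to 0.012 for *Abhd5* in the quadriceps, and -0.029 to 0.040 for *Plin3* and -0.030 to 0.0021 for *Abhd5* in the mean of both muscles. Between the muscles they were -0.064 to 0.017 for *Pnpla2* in HFD mice, -0.047 to 0.0011 for *Pnpla2* and -0.066 to 0.015 for *Abhd5* in LFD mice, and -0.036 to 0.031 for *Plin5* over both diets. The wide spread of *Lipe* between mice and its low signal (mean 41.91, lowest array 14.7) limit what can be detected for this gene. Noise at low signal and differences between mice were not separated. Of the main p-values, only those for the mean of both muscles measure the spread between mice (10 per diet). The other main tests treated both muscles of a mouse as independent arrays. For the diet in each muscle, the interaction and the muscles over both diets, the spread was pooled over both muscles and diets. The quadriceps result of *Plin5* (limma's adjusted p = 0.0387) thus also rests on the spread in the gastrocnemius. With the quadriceps arrays alone, the adjusted p of *Plin5* was 0.264.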
